A study of Mus musculus with 2 samples.

Results

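Glutathione is a tripeptide of glutamate, cysteine and glycine that serves cells as their main soluble thiol. It is made in 2 enzymatic steps, is spent by peroxidases and transferases, and is recycled by a reductase. The 9 genes described here cover this cycle and were chosen by name: Slc7a11, Gclc, Gclm and Gss for supply and synthesis, Gsr for recycling, Gpx1 and Gpx4 for the removal of peroxides, and Gstm1 and Mgst1 for conjugation. All 9 were among the 26124 genes measured. In myeloid cells the pathway is best known for holding oxidant damage in check, and several of its genes are classical targets of the transcription factor NRF2, which binds the antioxidant response element together with small MAF proteins.

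The genes were followed in single-cell transcriptomes of C57BL/6 mouse bone marrow cultures. Marrow of mice aged 8 to 10 weeks was depleted of cells carrying lineage markers and grown with GM-CSF at 20 ng/ml, a growth factor under which progenitors turn into granulocytes, macrophages and dendritic cells. On day 3 the cultures received either albumin as the control or heme-albumin at 300 µM. Each group was 1 droplet library that pooled 5 cultures, told apart by DNA-tagged antibodies (hashtags) whose names give the culture day: 0, 3, 4, 5 or 7. The cultures of days 0 and 3 were not yet exposed and give the background of each library.

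The exposure times given for the day 5 culture differ between the sources, so culture days are used throughout. The control library held 12050 cells with a single hashtag and the heme library 14164. Summed transcripts, counted by unique molecular identifiers (UMIs), ran from 19140367 to 41970208 per control culture and from 25004562 to 75505515 per heme culture. The libraries shared 112 cell barcodes, 0.802% of the control barcodes and 0.644% of the heme barcodes. Levels are given as CPM, the UMIs of a gene per 1000000 UMIs of its culture or gate. A ratio is the CPM of heme over that of control, with the exact 95% interval for 2 Poisson counts in parentheses, which covers counting error only. With 1 library per group, no test between groups could be made, no difference has a replicate check, and heme and library cannot be told apart. A gene is called here at a ratio of 2 or more, or of 0.5 or less, and a background percent is the share of all genes at a mean of 10 CPM or more that passed the same limit. The median log2 ratio of all those genes was 0.38, 0.32, 0.27, 0.19 and 0.28 on days 0, 3, 4, 5 and 7.

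Exposure was visible in Hmox1, which encodes the heme-degrading enzyme heme oxygenase 1. Its level in the control library was 1.83, 35.9, 62.1, 62.4 and 84.1 CPM on days 0, 3, 4, 5 and 7, against 124, 151, 1939, 3479.5 and 5137 CPM in the heme library. The heme library thus held Hmox1 before any exposure. Droplets also take up RNA that floats free of cells, and day 0 progenitors, which should lack the macrophage genes Marco and Spic, carried them at 6.61% of their mean level in the heme library. The same percent of the library mean of Hmox1 is 146 CPM, above its day 0 level. Levels that free RNA could give in the control library use this percent too, although it was measured in the heme library alone.

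The genes lie on several chromosomes in the GENCODE M21 annotation of GRCm38: Gclm at chr3:122245557-122270732, Slc7a11 at chr3:49892526-50443614 and Gstm1 at chr3:108012255-108017973. Gclc lies at chr9:77754535-77794485, Gpx1 at chr9:108338903-108340343, Gss at chr2:155563181-155592810, Gsr at chr8:33652523-33698163, Gpx4 at chr10:80047166-80056439 and Mgst1 at chr6:138140316-138156755. All 9 are protein-coding genes, and the values count whole genes, from reads near the 3′ end. Gss overlaps Acss2, which is counted too and lies on the other strand, and Slc7a11 overlaps the counted gene Gm37498 on its own strand. Gstm1 has close relatives in its family and Gpx4 has an annotated pseudogene, Gpx4-ps2, so reads of these could be split.

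RefSeq promoter windows (GRCm38.p6, 250 bases before to 50 after the start) were at hand for 7 of the 9 genes, all but Gclc and Gsr. The bases before the start are shown for Gclm, Slc7a11 and Gstm1, the genes with the highest ratios on day 4. They span chr3:122245307-122245556 on the plus strand for Gclm, chr3:50443614-50443863 on the minus strand for Slc7a11 and chr3:108017974-108018223 on the minus strand for Gstm1. Each runs 5′ to 3′ towards the gene, and capitals mark a match to TGACNNNGC, the core of the antioxidant response element, or to TGAGNNNGC, both searched on both strands.
Gclm: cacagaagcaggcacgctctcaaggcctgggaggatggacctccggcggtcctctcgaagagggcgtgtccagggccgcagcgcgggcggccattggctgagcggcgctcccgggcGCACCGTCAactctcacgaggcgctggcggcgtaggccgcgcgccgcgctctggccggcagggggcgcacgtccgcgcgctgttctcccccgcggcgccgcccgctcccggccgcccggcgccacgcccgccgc
Slc7a11: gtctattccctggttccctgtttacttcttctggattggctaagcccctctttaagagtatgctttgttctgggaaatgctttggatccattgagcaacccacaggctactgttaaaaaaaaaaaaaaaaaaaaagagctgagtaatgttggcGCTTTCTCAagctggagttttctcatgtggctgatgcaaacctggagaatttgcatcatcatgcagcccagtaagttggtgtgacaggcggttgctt
Gstm1: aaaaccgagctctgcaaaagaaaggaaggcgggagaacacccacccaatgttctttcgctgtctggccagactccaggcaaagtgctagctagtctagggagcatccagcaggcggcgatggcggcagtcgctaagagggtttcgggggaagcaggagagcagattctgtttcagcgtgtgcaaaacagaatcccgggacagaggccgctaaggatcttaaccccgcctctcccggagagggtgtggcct
The capitals in Gclm are TGACNNNGC read on the opposite strand and begin at base -134 from the start, and those in Slc7a11 are TGAGNNNGC on the opposite strand at base -97. The first window of Mgst1 held TGACNNNGC at base -56. The 12 windows of the 7 genes held no other match. Of all 32851 windows of 300 bases, 12.4% held TGACNNNGC, 17.6% held TGAGNNNGC and 27.8% held either, beside which stand 3 of the 12 windows here. A match describes letters only, and the absence of a match says nothing beyond this window.

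Before heme was added, the libraries were not alike in these genes, although in the summed counts only Slc7a11 on day 0 reached 2-fold. On day 3 none of the 9 was called (background 0.965% higher), the median of their log2 ratios was 0.10, and 6 ratios were above 1 but only 2 above the median of all genes. Slc7a11 stood at 1.84 (1.73–1.97) and Gclc at 1.63 (1.52–1.76), whereas Gpx4 stood at 0.724 (0.712–0.735) and Mgst1 at 0.672 (0.652–0.692). These 4 genes were therefore at unequal measured levels before the exposure. For Slc7a11, 60.6 CPM in heme and 32.9 CPM in control stand beside 21.5 and 5.83 CPM that free RNA could give. The measured levels were 2.82 and 5.64 times those values, so the ratio would be smaller with free RNA subtracted. The free RNA in these cells was not itself measured. On day 0, Slc7a11 alone was at 2-fold or more, at 14.1 CPM in heme and 2.46 CPM in control, a mean under 10 CPM, and 0 of the 8 genes at 10 CPM or more were (background 8.64% higher). Both values lie under the levels of 21.5 and 5.83 CPM that free RNA could give. With free RNA subtracted, both fell to a floor of 3 UMIs, so no direction could be read.

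After heme was added, most of the supply and synthesis genes and the transferase Gstm1 were higher, while Gpx1 was lower. On day 4, 5 of 9 genes were at 2-fold or more (Gclm, Gclc, Gss, Slc7a11 and Gstm1; background 4.31%) and 1 was at 0.5 or less (Gpx1; background 0.767%). Day 5 gave the same 5 genes higher (background 5.00%) and Gpx1 lower (background 1.83%). Gss, at 7.21 and 9.53 CPM in control on days 4 and 5, reached a mean of 10 CPM only through heme. This fixed its direction among the genes at that mean. On day 7, 6 of 9 were higher (background 10.1%), with Gsr and Mgst1 now past the limit and Gss at 1.55 below it, and Gpx1 was again the single gene lower (background 4.08%). The median log2 ratio of the 9 genes was 1.10, 1.37 and 1.57 on days 4, 5 and 7.

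**Figure D1:**
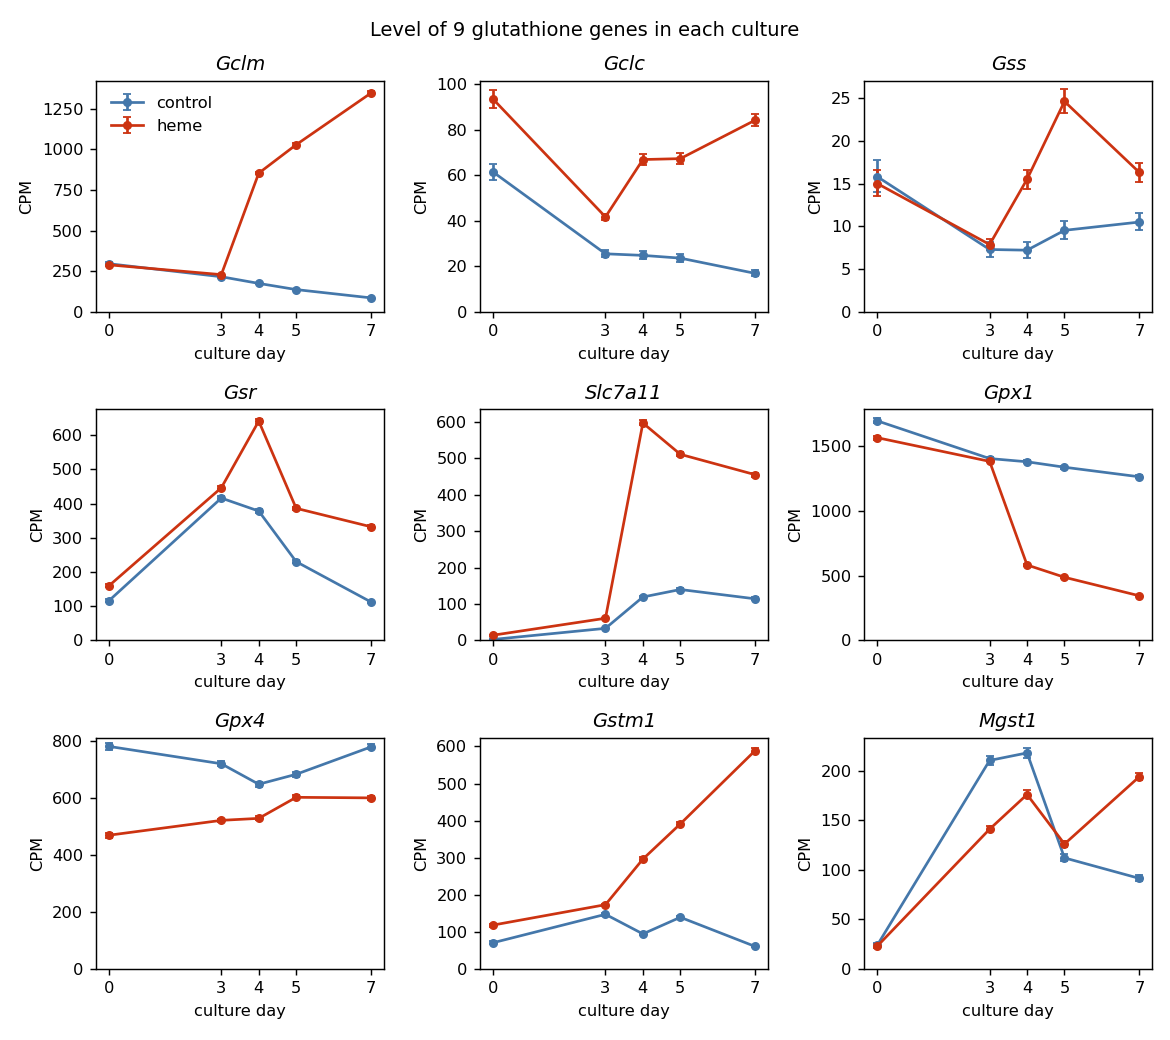
Level of each gene in CPM (vertical axis, starting at 0, with its own scale per gene) against culture day, in the control library (blue) and the heme library (red); bars are exact 95% counting intervals. Gclm and Gstm1 in heme stand higher on each day after day 3, Slc7a11 is highest on day 4, and Gpx1 in heme stands at 582 CPM or less from day 4 on against at least 1263 CPM in every control culture.

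Gclm encodes the modifier subunit of glutamate-cysteine ligase, the enzyme of the first and rate-limiting step, which improves the activity of the catalytic subunit. Its level in the control library was 296, 216, 175, 137 and 85.9 CPM on days 0, 3, 4, 5 and 7, lower on every later day. In the heme library it was 289, 229, 853, 1028 and 1346 CPM. The libraries were alike on days 0 and 3 and moved apart from day 4 on, so that the ratio was 4.89 (4.75–5.03) on day 4, 7.49 (7.27–7.72) on day 5 and 15.7 (15.2–16.2) on day 7. Part of the last ratio comes from the control side, where the day 7 level was 0.397 of that on day 3, and part from the heme side, where it was 5.89 times that on day 3.

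Gclc encodes the catalytic subunit of the same ligase. Its control levels were 61.4, 25.5, 24.8, 23.6 and 16.9 CPM, and its heme levels were 93.4, 41.7, 66.9, 67.3 and 84.2 CPM. Unlike Gclm, Gclc had its highest level of either library in the unexposed progenitors of day 0. The ratio was 2.70 (2.5–2.93) on day 4, 2.86 (2.65–3.09) on day 5 and 4.98 (4.6–5.4) on day 7. Divided by the ratio of 1.63 already there on day 3, Gclc did not reach 2 on days 4 and 5, at log2 ratios of 0.73 and 0.81, and was at 1.61 on day 7.

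Gss encodes glutathione synthetase, which adds glycine in the second step. Its levels were low throughout, at 15.8, 7.29, 7.21, 9.53 and 10.5 CPM in control and 15.0, 7.87, 15.5, 24.6 and 16.3 CPM in heme. The difference was widest on day 5, at 2.58 (2.28–2.92), and narrower on day 7, at 1.55 (1.38–1.74). Within the study's limits on cells, the log2 ratio was 0.42 on day 4 and 0.39 on day 5. These limits left out 9.13% and 13% of control cells and 21.1% and 31.4% of heme cells on those days. As a mean over cells, the log2 ratio was 0.68 and 0.79, so both calls of Gss were lost under either setting. With other scalings (TMM, DESeq2, median of all genes) that of day 4 was lost as well, at 0.78 to 0.83, and divided by the day 3 ratio it was at 0.99. In the summed counts, Gss was the single gene among those higher whose ratio was smaller on day 7 than on both other days after exposure.

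Slc7a11 encodes the light chain of the cystine and glutamate exchanger, which brings in cystine for synthesis. It came up with culture age in control, at 2.46, 32.9, 119, 139.6 and 114 CPM, and stood at 14.1, 60.6, 597, 511 and 455 CPM in heme. The heme culture went to 9.87 times its day 3 level within the first day after addition and was lower on days 5 and 7. The ratio was accordingly largest on day 4, at 5.00 (4.83–5.17), followed by 3.66 (3.55–3.78) and 3.97 (3.85–4.10) on days 5 and 7. Divided by the ratio of day 3, the log2 ratio of Slc7a11 was 1.44, 0.99 and 1.11 on days 4, 5 and 7, so the call of day 5 was lost. That day 3 ratio was not corrected for free RNA.

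Gsr encodes glutathione reductase, which returns oxidized glutathione to its reduced form. In control it was 116, 416, 378, 230 and 112 CPM, and in heme 159.6, 446, 641, 386 and 332 CPM. Both libraries had a maximum, on day 3 in control and day 4 in heme, and lower levels afterwards. The ratio was 1.70 (1.66–1.73) on day 4, 1.68 (1.63–1.72) on day 5 and 2.97 (2.88–3.07) on day 7. The day 7 heme level was still below that of day 3 in the same library, at 0.744 of it, while the control level of day 7 was at 0.269 of that of day 3.

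Gpx1 encodes the soluble glutathione peroxidase, a selenoprotein that removes hydrogen peroxide at the cost of glutathione. Its control levels kept within 1695, 1404, 1379, 1337 and 1263 CPM. In heme they were 1565 and 1382 CPM before exposure and 582, 487 and 344 CPM after it. The heme level on day 4 was 0.421 of that on day 3, and the ratio to control was 0.422 (0.416–0.429), 0.364 (0.359–0.370) and 0.273 (0.268–0.277) on days 4, 5 and 7. Gpx1 was the single gene of the 9 at 0.5 or less at any time.

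Gpx4 encodes the peroxidase that reduces lipid hydroperoxides within membranes and guards against ferroptosis. Control levels were 782, 721, 649, 684 and 780.3 CPM and heme levels 469.7, 522, 529, 603 and 601 CPM. The heme library was lower at all times, including before exposure, with ratios of 0.601 (0.586–0.615) and 0.724 on days 0 and 3. The ratios of 0.815 (0.800–0.831), 0.882 (0.867–0.897) and 0.770 (0.758–0.782) on days 4, 5 and 7 were nearer to 1 than that of day 3, and all 3 turned direction when divided by it. The 2 peroxidases thus had different courses within the same cultures.

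Gstm1 encodes a cytosolic transferase of the mu class that attaches glutathione to electrophiles. It was 70.4, 147, 94.1, 139 and 60.2 CPM in control, with no steady course, and 118, 173, 296, 391 and 589 CPM in heme. The ratio was 3.14 (3.02–3.27), 2.81 (2.73–2.90) and 9.79 (9.40–10.2) on days 4, 5 and 7. As a mean over cells, the log2 ratio was 0.41 on day 5, which ends the call, and 2.25 on day 7, against 1.49 and 3.29 for the summed counts. The gap between the summed ratios of days 5 and 7 came from both sides, since heme was 1.51 times higher on day 7 than on day 5 and control was at 0.433.

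Mgst1 encodes a membrane-bound transferase with peroxidase activity. In control it was 23.9, 210.4, 218, 112 and 91.3 CPM and in heme 22.9, 141, 176, 126 and 194 CPM. Control was higher on days 3 and 4 and heme on day 7, with ratios of 0.808 (0.782–0.834), 1.12 (1.08–1.17) and 2.12 (2.05–2.21) on days 4, 5 and 7. The direction on day 5 turned with TMM factors, with DESeq2 size factors, relative to the median of all genes and as a mean over cells, and that on day 4 when divided by the day 3 ratio. Relative to the median of all genes, with TMM factors, with DESeq2 size factors, as a mean over cells or without ribosomal protein and mitochondrial genes, Mgst1 on day 7 was under the limit, at log2 ratios of 0.81 to 0.98. Neutrophil markers also differed between the cultures, and their part in the Mgst1 and Gsr ratios was not tested. The summed level of 9 neutrophil markers was 97339, 139042, 67051 and 4169 CPM on days 3, 4, 5 and 7 in control and 72699, 124804, 44894 and 18415 CPM in heme.

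The share of cells with a UMI was taken at equal depth, with each cell thinned to 3000 UMIs. At this depth it also follows the level per cell, so it cannot tell more expressing cells from more RNA per cell. For Gclm the share in control was 43.0% on day 0 and 21.6% (20.1–23.1%) on day 7, and in heme 45.2% on day 0, 83.1% on day 4 and 91.2% (90–92.2%) on day 7. Intervals on shares are exact binomial and cover counting error only. Slc7a11 was seen in 7.52%, 24.0% and 24.2% of control cells on days 3, 4 and 7 and in 15.8%, 70.0% and 63.4% of heme cells. Its share in day 0 cells, where the gene was at the level of free RNA, was 0.816% in control and 4.80% in heme, at median depths of 9446 and 9771 UMIs before thinning.

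Gstm1 was seen in 15.0% of control and 68.0% of heme cells on day 7, and Gpx1 in 94.4% and 61.5%. Without thinning, the day 7 shares in control and heme were 52.2% and 94.9% for Gclm, 50.1% and 88.5% for Slc7a11, 38.4% and 90.8% for Gstm1, and 97.0% and 91.9% for Gpx1. On day 7, 311 control and 193 heme cells had fewer than 3000 UMIs and were left out of the thinned shares. Apart from Slc7a11 on day 0, the data held no cell type known to lack these genes that could serve as background.

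**Figure D2:**
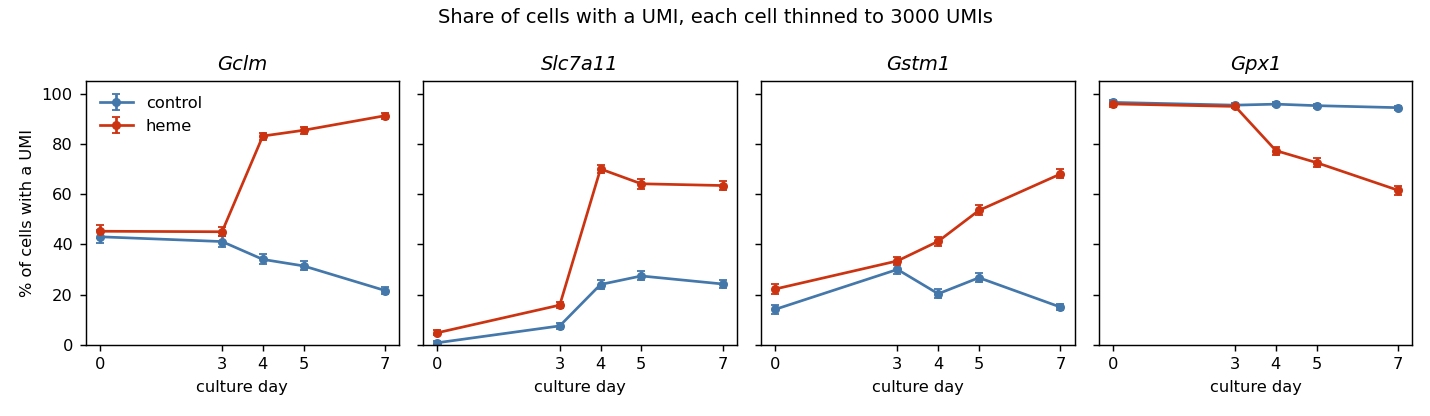
Percent of cells with at least 1 UMI of Gclm, Slc7a11, Gstm1 and Gpx1 (vertical axis) against culture day after each cell was thinned to 3000 UMIs, in control (blue) and heme (red), with exact 95% binomial intervals as bars. From day 4 on the heme cultures have the larger share for the first 3 genes and the smaller share for Gpx1.

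Cells were also gated on raw UMIs of a marker gene. The Camp gate (20 or more) used a granule gene of neutrophils and the Marco gate (3 or more) a scavenger receptor of macrophages. The Ccr7 gate (3 or more) used a chemokine receptor of mature dendritic cells. Cells past no gate are called ungated, and those past more than 1 gate, at most 11 per culture, were left out. Other markers of each type were summed without the 3 gate genes. The 8 neutrophil markers left summed to between 207536 and 315366 CPM in Camp-gated cells, and to at most 42324 CPM in ungated cells. The 7 dendritic cell markers left summed to between 17401 and 22357 CPM in Ccr7-gated cells, and to at most 11369 CPM in ungated cells. Marco-gated cells are named by their gate only. The 8 macrophage markers left summed to 794 CPM in Marco-gated and 425 CPM in ungated heme cells of day 7, with 4 of them at 10 CPM or more in both, and the neutrophil and dendritic cell markers of the Marco-gated cells summed to 3179.5 and 2532 CPM. In the Camp-gated and Ccr7-gated heme cells of that day the macrophage markers left summed to 82.3 and 122 CPM, with C1qa and C1qc at 0.

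Only gates with 50 or more cells in both libraries were compared. Marco-gated cells were too few for this in control, with 13 on day 7 against 1097 in heme. The Marco gate was therefore used only within the heme library. Camp-gated cells on day 7 numbered 11 in control and 156 in heme, and Ccr7-gated cells 612 and 58.

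In Camp-gated cells the genes past the limit were those of the whole culture on day 4, and on day 5 all of those but Gss. On day 3, 0 of 9 were called (background 7.10%). On day 4, 5 of 9 were higher, 4 of them among the 8 genes at 10 CPM or more (background 8.95%). Gpx1 was lower (background 0.255%). On day 5, 4 of 9 were higher (background 9.13%) and Gpx1 was lower (background 0.928%). Gclc, at 5.57 and 7.16 CPM in control on days 4 and 5, reached a mean of 10 CPM only through heme. This fixed its direction among the genes at that mean. Slc7a11 in these cells was 67.2 CPM in control and 574 CPM in heme on day 4, a ratio of 8.55 (7.94–9.22), which is larger than in the whole culture or in ungated cells. Gclm was 119.6 against 656 CPM on day 4 (5.49, 5.18–5.81), and Gclc was 5.57 against 36.8 CPM (6.61, 5.09–8.71). Gss, the gene under 10 CPM, rested on 24 and 87 UMIs on day 4, with a ratio of 2.24 (1.41–3.69). Relative to the median of all genes, Gss and Gstm1 were under the limit on day 4, at log2 ratios of 0.74 and 0.98, as was Gss within the study's limits (0.81) and Gclc on day 5 divided by the day 3 ratio (0.94).

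Gpx1 in Camp-gated cells was at 0.399 (0.389–0.410) on day 4 and 0.409 (0.382–0.437) on day 5, from a ratio of 1.04 on day 3. Mgst1 was highest of all gates in Camp-gated cells, with 417, 451 and 421 CPM in control on days 3, 4 and 5 and 283, 289.7 and 271 CPM in heme. Its ratio of 0.678 (0.652–0.706) on day 3 differed little from 0.642 (0.617–0.667) on day 4 and 0.643 (0.588–0.704) on day 5. The lower Mgst1 of these heme cells was therefore there before exposure. Gsr in Camp-gated cells was 561 against 845 CPM on day 4, a ratio of 1.51 (1.46–1.55), and 367 against 620.1 CPM on day 5, a ratio of 1.69 (1.57–1.81). The 9 neutrophil markers in Camp-gated cells summed to 331672 CPM in control and 261878 CPM in heme on day 4, and their part in these ratios was not tested.

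In Ccr7-gated cells, 5 of 9 genes were higher on day 5 (background 9.19%) and on day 7 (background 20.3%), namely Gclm, Gclc, Slc7a11, Gstm1 and Mgst1. Gpx1 was lower on day 5 (background 1.43%) and day 7 (background 5.15%). On day 5, Mgst1 reached a mean of 10 CPM only through heme, at 9.59 CPM in control. Gclm was 62.5 CPM in control and 320.5 CPM in heme on day 5 (5.13, 4.34–6.09), and 47.3 against 173 CPM on day 7 (3.65, 2.96–4.47). The heme values are above the 50 CPM that free RNA could give. Within the study's limits the log2 ratio of Gclm on day 5 was 1.57, against 2.36 as given. Slc7a11 had a smaller ratio here than in the other gates, at 2.26 (2.00–2.57) on day 5 and 2.36 (2.04–2.73) on day 7, and relative to the median of all genes both were under the limit. Its control level in Ccr7-gated cells, 132 CPM on day 7, was above the 110.3 CPM of ungated cells. Gstm1 was 30.9 against 173 CPM on day 7 (5.59, 4.48–6.95).

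Mgst1 in Ccr7-gated cells was 9.59 against 29.7 CPM on day 5 (3.09, 1.97–5.03) and 17.0 against 58.5 CPM on day 7 (3.43, 2.38–4.86). Free RNA could give 8.92 CPM in control and 9.30 CPM in heme, so the control value of day 5 is close to that level. With free RNA subtracted, that value fell to the floor of 3 UMIs, which set the day 5 log2 ratio of 4.15 (1.63 before). The log2 ratio of day 7 was 2.60 against 1.78. Gpx4 was not lower in these cells, with 772 against 881 CPM on day 5 (1.14, 1.08–1.21) and 842 against 922 CPM on day 7 (1.10, 1.01–1.19). Relative to the median of all genes, these Gpx4 ratios turned direction. Gss on day 7 rested on 3 UMIs in heme and 55 in control and gave a ratio of 0.601 (0.120–1.85), so no difference was detectable at this depth.

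In ungated cells, 0 of 9 genes were called on day 3 (background 0.624%). On days 4, 5 and 7, 5 of 9 were higher (backgrounds 5.50%, 5.19% and 7.07%) and Gpx1 was lower (backgrounds 1.30%, 2.08% and 3.16%). Gclm had ratios of 4.83 (4.67–4.99), 7.16 (6.94–7.40) and 12.8 (12.3–13.3) on these days, and Gstm1 of 3.43 (3.27–3.58), 2.66 (2.58–2.75) and 8.74 (8.36–9.14). As in the whole culture, Gstm1 on day 5 and Gss on days 4 and 5 were under the limit as a mean over cells. Gss was so within the study's limits too, at log2 ratios of 0.69 and 0.32. Divided by the day 3 ratio, Gclc was under it on days 4 and 5 (0.64 and 0.74) and Slc7a11 on day 5 (0.95). Mgst1 was at 1.18 (1.12–1.25), 1.67 (1.58–1.75) and 1.76 (1.69–1.84). Ungated cells of the libraries were not alike. On day 7 their neutrophil markers summed to 3971 CPM in control and 17292 CPM in heme. Without gate genes, their dendritic cell markers summed to 11369 CPM in control and 4701 CPM in heme, and their macrophage markers to 586 and 425 CPM. The part of these differences in the ratios of ungated cells, among them Mgst1 and Gsr, was not tested.

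**Figure D3:**
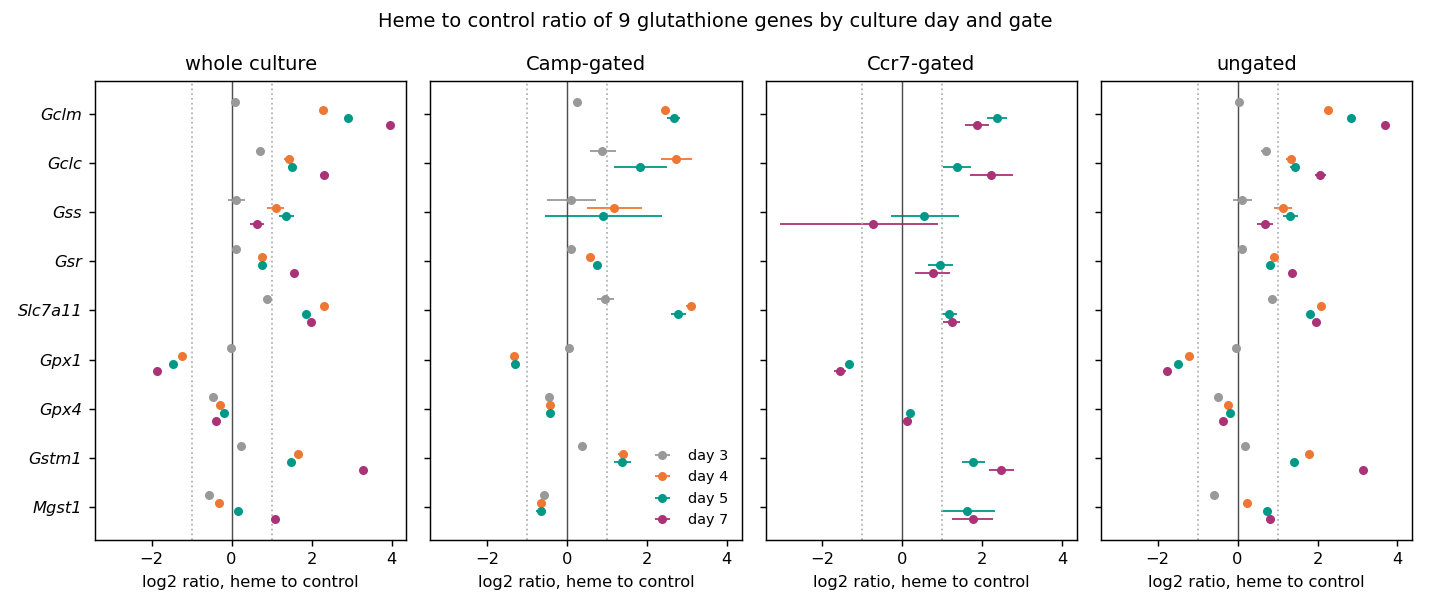
Log2 ratio of heme to control (horizontal axis, dotted lines at 2-fold) for each gene in the whole culture and in Camp-gated, Ccr7-gated and ungated cells, by culture day (colours), with exact 95% counting intervals as bars. Gpx1 lies left of the lower line on every day from 4 on in each panel, Gclm lies right of the upper line, and Mgst1 lies left of 0 in Camp-gated and right of 0 in Ccr7-gated cells.

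Within the heme culture of day 7, the genes were uneven between gates. Gclm was 1608 CPM in Marco-gated, 1207 CPM in ungated, 499.6 CPM in Camp-gated and 173 CPM in Ccr7-gated cells, and the intervals of these 4 levels do not overlap. Even the lowest of them exceeded the 94.3 CPM of ungated and the 47.3 CPM of Ccr7-gated control cells. Gstm1 had the same order, at 645, 580.1, 219 and 173 CPM, with overlapping intervals for Camp-gated and Ccr7-gated cells. Against Camp-gated cells, 4 of 9 genes were at 2-fold or more in Marco-gated cells (background 18.3%): Gclm at 3.22 (3.02–3.43), Gstm1 at 2.94 (2.67–3.24), Gss at 2.84 (1.57–5.74, on 11 UMIs in Camp-gated cells) and Gclc at 2.74 (2.17–3.51). Gsr was alike in both, at 340.4 and 351 CPM, and Mgst1 was lower in Marco-gated cells, at 194 against 314 CPM.

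Marco-gated and ungated cells differed little, with 0 of 9 genes at 2-fold or more (background 0.557%). Gclm was 1.33 (1.31–1.35) times higher in Marco-gated cells and Gclc 1.32 (1.24–1.40) times. Marco-gated cells were 37.8% of the cells and gave 45.0% of all UMIs of this culture, 53.8% of the Gclm UMIs and 52.8% of the Gclc UMIs. The ungated cells gave 44.2% of the Gclm UMIs. Among them, Gclm was 1179.5 CPM in the 1234 cells without a Marco UMI, 1244 CPM in the 245 cells with 1 and 1345 CPM in the 99 cells with 2, at median depths of 12244, 19456 and 20518 UMIs. At equal depth, Gclm was seen in 97.6% (96.5–98.4%) of Marco-gated, 91.1% (89.5–92.5%) of ungated, 75.5% (67.9–82.0%) of Camp-gated and 32.7% (20.3–47.1%) of Ccr7-gated heme cells. In control cells the share was 21.6% of ungated and 11.5% of Ccr7-gated cells. Median depths before thinning were 20046, 13784, 9522 and 11298 UMIs in the 4 heme gates and 11963 and 11586 UMIs in the control gates.

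Ccr7-gated heme cells stood apart at the other end, with 0 of 9 genes at 2-fold or more over ungated heme cells (background 11.8%) and 5 at 0.5 or less (background 21.7%). These 5 were Gclm at 0.143 (0.119–0.170), Gsr at 0.210 (0.156–0.276), Gss at 0.223 (0.0458–0.656), Gstm1 at 0.298 (0.248–0.355) and Mgst1 at 0.310 (0.224–0.418). Slc7a11 was 312 CPM in Ccr7-gated and 433 CPM in ungated heme cells, a ratio of 0.719 (0.628–0.819). Gpx4 was 922 CPM against 595 CPM, a ratio of 1.55 (1.43–1.67). Gpx1 differed less between gates than between libraries, with 322, 345, 359 and 494 CPM in Marco-gated, Camp-gated, ungated and Ccr7-gated heme cells, against 1217 and 1442 CPM in ungated and Ccr7-gated control cells.

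**Figure D4:**
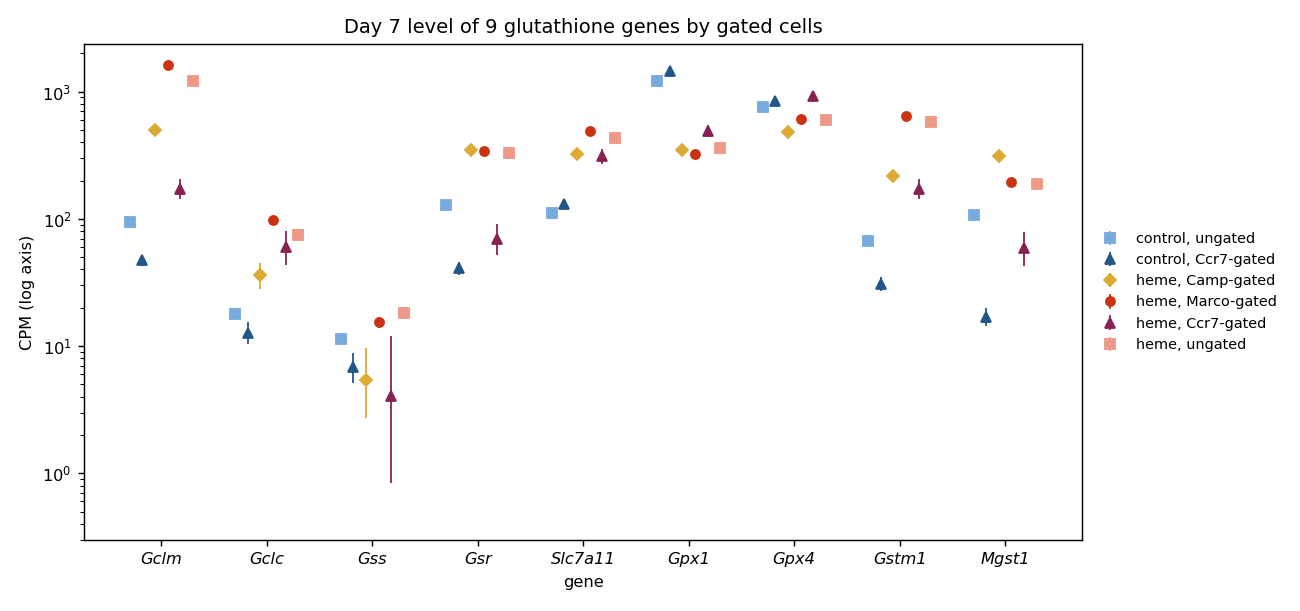
Day 7 level in CPM (vertical log axis) of the 9 genes in gated cells of the control library (blue symbols) and the heme library (other colours), with exact 95% counting intervals as bars; symbol shape marks the gate. Gpx1 in all 4 heme gates lies below both control gates, and Gclm ranges from 173 to 1608 CPM among the heme gates.

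A list of 67 other genes of glutathione supply, use, transport and control was also followed. On day 3, 32 of the 67 were at a mean of 10 CPM or more in both cultures together, of which 1, the transporter Abcc4 at 2.01 (1.82–2.23), was at 2-fold or more (background 0.965%) and 0 at 0.5 or less. On days 4, 5 and 7 the numbers at 2-fold or more were 6 of 32, 11 of 36 and 14 of 38, and 0, 0 and 1 were at 0.5 or less. Over all genes the shares on these days were 4.31%, 5.00% and 10.1% higher and 0.767%, 1.83% and 4.08% lower. On day 7, Gsta3, Gstm2, Hpgds, Ggt5 and Abcc4 reached a mean of 10 CPM only through the heme culture, which fixed their direction. The same held for Gstm2 on days 4 and 5, and for Ggt5 and Abcc4 on day 5. The counts and medians of the list on days 4, 5 and 7 are therefore a description. On day 7 the median log2 ratio of the 38 was 0.57, against 0.28 for all genes. The 3 extracellular and reticulum peroxidases on the list, Gpx3, Gpx7 and Gpx8, did not reach 10 CPM on that day.

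Of the 4 transporters tested on day 7, the 3 that carry glutathione or its conjugates out of cells were higher (background 10.1%). Abcc4 passed 10 CPM only through the heme culture, which fixed its direction. Abcc1 was 41.0 CPM in control and 209 CPM in heme, Abcc5 24.6 and 155 CPM, and Abcc4 6.08 and 30.8 CPM, with ratios of 5.10 (4.85–5.37), 6.29 (5.90–6.72) and 5.07 (4.44–5.81). All 3 were already at 1.96 to 2.28 on day 0 and at 1.69 to 2.01 on day 3. Slc25a39, the mitochondrial glutathione carrier, was at 0.963 (0.925–1.00).

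Of 10 transferases on day 7, 5 were higher and 1 was lower (backgrounds 10.1% and 4.08%). Gsta3, Gstm2 and Hpgds passed 10 CPM only through the heme culture, which fixed their direction, so the count is a description. Gsta3, of the alpha class, went from 11 UMIs in control to 30.3 CPM in heme, a ratio of 116 (64.4–232). Gstm2, a relative of Gstm1, was 5.15 and 71.9 CPM (14.0, 12.2–16.1), Mgst2 33.3 and 136 CPM (4.09, 3.87–4.34) and Hpgds, a prostaglandin D synthase, 3.79 and 21.7 CPM (5.74, 4.86–6.82). The fifth was Gstp1, of the pi class, at 25.5 and 53.0 CPM (2.08, 1.94–2.23). Before exposure, on days 0 and 3, Gsta3 was at 16.1 (2.59–665) and 4.74 (1.9–15.2), on 1 and 5 UMIs in control. Gstm2 was at 3.71 (2.02–7.35) and 3.1 (2.19–4.48) on these days. Mgst2 was at 1.24 and 0.736, Hpgds at 1.77 and 1.06 and Gstp1 at 0.9 and 1.12. Gsta3, Gstm2 and Hpgds were under a mean of 10 CPM on both days. The level that free RNA could give was not taken for these genes. Ltc4s, which joins glutathione to a leukotriene, was the one lower, at 64.8 and 27.9 CPM (0.430, 0.403–0.458). It had been at 1.40 and 1.76 on days 4 and 5, so its direction was not the same at all times.

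Over all genes, 10.1% were at 2-fold or more on day 7. Of the 10 supply genes tested on that day, 2 were higher. Ggt5, a surface enzyme that cleaves glutathione and its conjugates, was 3.36 and 38.7 CPM (11.5, 9.70–13.7). It passed 10 CPM only through the heme culture, which fixed its direction. Before exposure Ggt5 was at 2.86 (1.9–4.43) on day 0 and 1.63 (1.26–2.14) on day 3, under a mean of 10 CPM. Cndp2, a dipeptidase that splits cysteinylglycine, was 104 and 223 CPM (2.15, 2.07–2.22). Slc3a2, the heavy chain partner of Slc7a11, was 102 and 196 CPM, a ratio of 1.92 (1.85–1.99). Of the 3 genes that clear glyoxals and S-formylglutathione, Esd was higher, at 359 and 768 CPM (2.14, 2.10–2.18). Of 4 glutaredoxins, which reduce disulfides with glutathione, Glrx was higher, at 102 and 215 CPM (2.11, 2.04–2.19). Of 7 transcription regulators, 2 were higher. Bach1, a heme-binding repressor of antioxidant genes, was at 38.2 and 101 CPM (2.65, 2.51–2.81). Before exposure Bach1 was already at 2.24 (1.99–2.53) on day 0 and 1.41 (1.33–1.49) on day 3. Mafg, a small MAF protein, was at 56.3 and 119 CPM (2.12, 2.02–2.23). Nfe2l2, which encodes NRF2, was 228 and 175 CPM, a ratio of 0.768 (0.746–0.790), and Keap1, its inhibitor, 39.2 and 53.4 CPM.

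**Figure D5:**
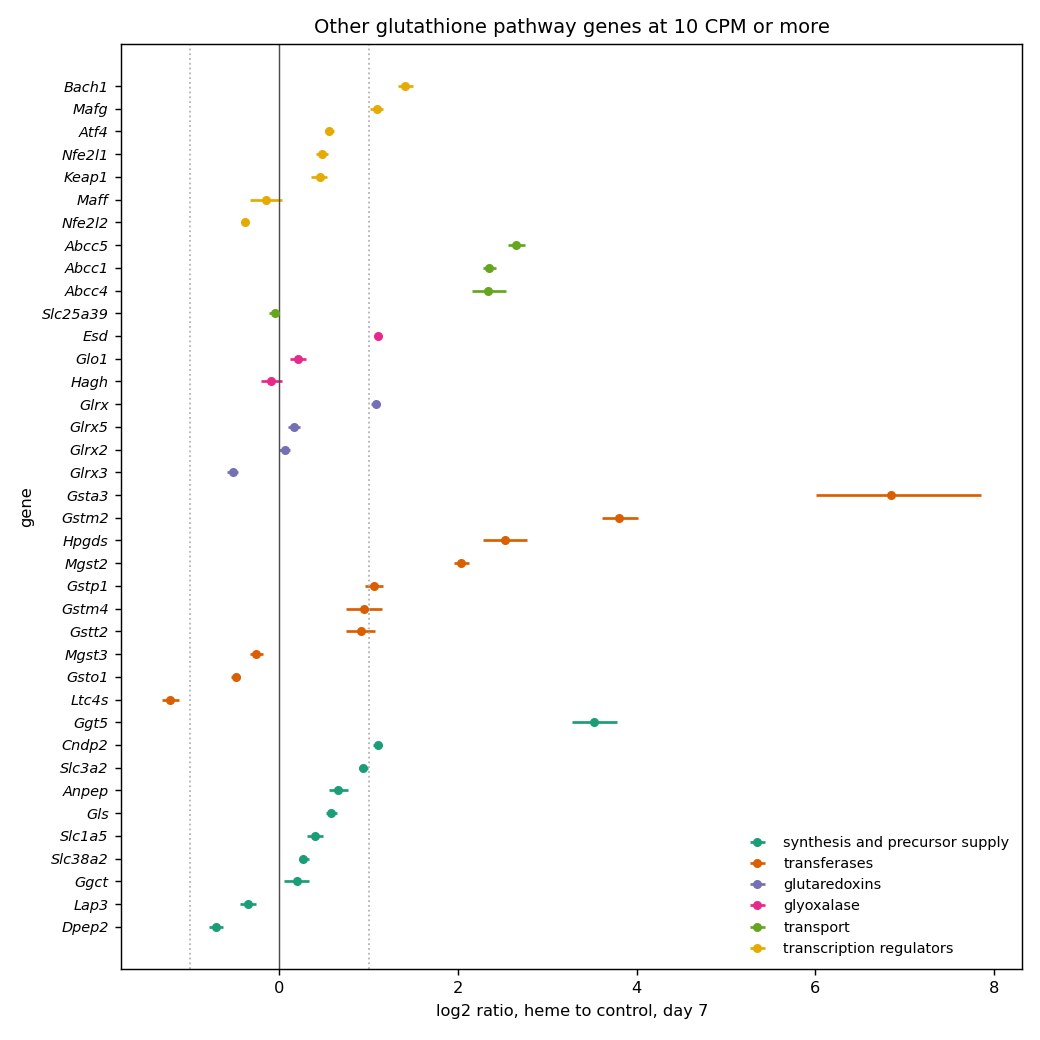
Log2 ratio of heme to control on day 7 (horizontal axis, dotted lines at 2-fold) of the 38 other pathway genes at a mean of 10 CPM or more, ordered by role (colours) and by ratio, with exact 95% counting intervals as bars. Gsta3 lies farthest right and Ltc4s is the only gene left of the lower line.

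Over the 10 cultures, the 9 genes did not share a single course. By Pearson correlation of log2(CPM + 1), Gclm was most like Gstm1 (0.88) and Gclc (0.81) among the members and ran against Gpx1 (-0.86), while Gstm1 and Gpx1 stood at -0.90. Slc7a11 and Gclc were at 0.00. These values describe 10 cultures that share 2 libraries. Among 7941 genes at a mean of 10 CPM or more, those with the course most like each member were Ppt2 for Gclm (0.99), Psmd5 for Gclc (0.979), Pdzk1ip1 for Gss (0.955), Ica1 for Gsr (0.985) and Fam214b for Slc7a11 (0.99). For the others they were Mdh2 for Gpx1 (0.973), Commd3 for Gpx4 (0.977), Panx1 for Gstm1 (0.976) and Cib2 for Mgst1 (0.984).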

How the data were processed

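The authors deposited raw UMI counts per gene and barcode for both libraries, made with Cell Ranger from 10x 3′ v3.1 libraries. The matrix headers name version 5.0.0, the methods and the submitters' processing notes 4.0.0, and the notes name build GRCm38.p6. For the annotation and the use of strand, nothing is stated in those sources. Hashtag calls are the authors', from HTODemux in Seurat 3.2.3, and were used as they stand. Barcodes with several hashtags (1259 control, 1996 heme) or none (652 and 1218) were left out, and doublets within a hashtag remain.

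UMIs were summed over all cells with 1 hashtag per culture or gate and divided by the total. Ratios carry exact 95% Poisson intervals and shares exact binomial ones, for counting error only, and a count of 0 is read as allowing 3. Alternatives were TMM factors (edgeR 4.0.16), DESeq2 1.42.0 size factors, totals without 84 ribosomal protein and 37 mitochondrial genes, ratios relative to the median of all genes, means over cells, the study's limits (500 to 5000 genes, under 15% mitochondrial and 30% ribosomal UMIs), subtraction of free RNA, folds of 1.5 and 3, division by the day 3 ratio, and other gates. Gates needed 50 cells. Counts of members at 2-fold or more cover all 9, and the background the genes at a mean of 10 CPM. A gene under 10 CPM in 1 group can reach that mean only through the other, which fixes its direction. Marker sums without gate genes and ungated cells by Marco UMIs were added after the data were seen.

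Named besides the members and Hmox1 were the 12 listed pathway genes with the largest day 7 log2 ratios in either direction. The best correlated genes of each member were named too. Other pathway genes (Slc3a2, Slc25a39, Gstp1, Glrx, Mafg, Nfe2l2, Keap1) and the 3 peroxidases were named after their values were seen. The members and lists were chosen with earlier results of these data known. The ratio and interval code was tested on simulated counts. Of the 26124 gene identifiers, 26090 were found in GENCODE M21. Analyses used Python 3.11.15, numpy 2.4.6, scipy 1.17.1, pandas 2.3.3 and R 4.3.3.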

Additional observations from a re-analysis of the deposited data

Results flagged for a closer look

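Mgst1 changed direction between days and between cells. Its heme to control ratio in whole cultures was 0.808 on day 4, 1.12 on day 5 and 2.12 on day 7. On day 4 it was 0.642 in Camp-gated and 1.18 in ungated cells. On day 5 it was 0.643 in Camp-gated, 3.09 in Ccr7-gated and 1.67 in ungated cells. Gpx4 was also on both sides of 1, at 0.744 in Camp-gated, 1.14 in Ccr7-gated and 0.874 in ungated cells on day 5, and at 1.10 in Ccr7-gated and 0.779 in ungated cells on day 7. With 1 library per group these differences between days and gates were not tested.

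Barcodes outside the comparisons also differed between libraries, though not in all of these genes. In barcodes without a hashtag, the ratio was 2.84 for Gsr, 3.67 for Slc7a11 and 3.42 for Gstm1, while Gclm was at 1.10. Mgst1 was at 2.48 there, Gclc at 1.54, Gss at 0.974, Gpx1 at 0.697 and Gpx4 at 0.618. In barcodes with several hashtags, which mix cells of the same cultures, the ratio was 4.38 for Gclm, 3.76 for Slc7a11 and 3.31 for Gstm1. These barcodes have no culture day, so each value mixes exposed and unexposed cells.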

How the results depend on the processing

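No paired analysis was possible because each group has 1 library. Without replicates, precision is limited to counting error, and gates with few cells and genes with few UMIs (Gss in Camp-gated and Ccr7-gated cells) are the least certain. On day 7, the number of genes at 2-fold or more in whole cultures (6), Ccr7-gated cells (5) and ungated cells (5) stayed within 1.5 times under all alternatives run for them. The background share was taken only at 2-fold in the summed counts. Counts under other limits and settings therefore have no such share beside them and are a description only. At 3-fold, 3 genes were higher on day 4 in whole cultures, Camp-gated and ungated cells. On day 5 the count was 2 in whole cultures and ungated cells and 3 in Ccr7-gated cells. In Marco-gated over Camp-gated cells it was 1. At 1.5-fold, 3 were higher on day 0, 2 on day 3 in whole cultures, Camp-gated and ungated cells, and 1 in Ccr7-gated over ungated heme cells. Divided by the day 3 ratio, 3 were higher on days 4 and 5. As a mean over cells, 3 were higher on day 5 in whole cultures and ungated cells, and 1 in Camp-gated cells on day 3. Within the study's limits, 2 were higher on day 0 and 1 on day 3 in whole cultures, Camp-gated and ungated cells. These limits removed unequal shares of the libraries, 79.1% of control and 40.4% of heme cells on day 0. On the later days they removed 9.13% to 18.7% of control and 21.1% to 37.3% of heme cells. Lower gates gave 1 in Camp-gated cells on day 3, and ratios relative to the median of all genes gave 3 in Camp-gated cells on day 4. With free RNA subtracted, 0 were higher on day 0. Slc7a11 then fell to the floor of 3 UMIs in both libraries, so its log2 ratio of -0.39, against 2.52, shows no direction.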

Other observations

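Single cells differed in how evenly they carried the genes. In heme cells of day 7 with 3000 UMIs or more, Gclm ran from 369.7 CPM at the 10th percentile over a median of 1271 CPM to 2153 CPM at the 90th, and in Marco-gated cells from 954 over 1601 to 2305 CPM. Slc7a11 was more uneven in Camp-gated heme cells of day 4, with 0 CPM at the 10th percentile, a median of 466 CPM and 1706 CPM at the 90th. In Camp-gated control cells of that day the median was 0 CPM and the 90th percentile 284 CPM. Gpx1 in heme cells of day 7 ran from 109 over 311 to 627 CPM, against 552, 1159 and 2092 CPM in control cells. Such spreads hold counting noise of single cells as well as differences between them.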
